A study of Mus musculus with 13 samples.

Results

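The glucuronosyltransferases and sulfotransferases described here are the genes whose name in the array files starts with Ugt or Sult followed by a digit. There were 25 of them among 27962 distinct gene names on the array, 14 Ugt and 11 Sult genes, carried by 35 probes. The brightest probe of each gene was used, and its level is the log2 signal minus the 75th percentile of the array, so that a step of 1 is a doubling and a negative level lies below the 75th percentile. A level compares the same probe between animals and says nothing of the amount of one enzyme against another.

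UDP-glucuronosyltransferases sit in the endoplasmic reticulum and join glucuronic acid from UDP-glucuronate to bilirubin, steroids, bile acids, phenols and drugs. Sulfotransferases are cytosolic and transfer sulfate from the activated donor PAPS to phenols, catecholamines, thyroid hormones, steroids and bile acids. Both families are abundant in hepatocytes, where conjugation makes lipophilic compounds water-soluble, and hepatic transporters then move the conjugates into bile or blood.

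Liver RNA came from 3 TEKI mice, 5 TAKI mice and 5 wild-type (WT) mice. All were males of the C57BL/6 strain that had been kept on a western-style diet rich in fat for 5 months, so no group on another diet is compared. TAKI and TEKI mice carry knock-in alleles of SIRT1, an NAD-dependent deacetylase, in which a threonine that can be phosphorylated is replaced by alanine (TAKI) or by glutamate (TEKI). WT mice carry the unaltered gene, and the comparisons ask whether either substitution alters hepatic transcripts on this diet. The labels name a whole knock-in allele with no promoter or Cre, give no age, and do not say whether the groups were littermates.

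Each animal was measured on 1 Agilent 1-colour array. On 12 arrays 60.5% to 73.1% of spots were well above background, and on TEKI replicate 1 this was 86.8%, with 89 non-uniform spots against 1 to 6 on the others. Slide 1 carried WT replicates 1, 2 and 4, slide 2 WT replicate 3, slide 3 the 3 TEKI replicates with WT replicate 5, slide 4 TAKI replicates 1 and 2, and slide 5 TAKI replicates 3 to 5. TAKI and slide therefore cannot be told apart, and only WT replicate 5 shared a slide with TEKI. The number of arrays limits the precision. All 8 hepatocyte markers tested, among them albumin, were well above background on all 13 arrays, with a summed linear level, in multiples of the 75th percentile, of 2661 to 3557 in TEKI, 2070 to 2930 in TAKI and 2375 to 3234 in WT.

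Of the 25 genes, 21 were well above background on all 13 arrays and none was saturated. The other 4 were dim. Sult2a2 was measured well above background on 1 of 3 TEKI, 4 of 5 TAKI and 3 of 5 WT arrays. Sult3a1 was measured on 3 TEKI, 3 TAKI and 2 WT arrays, Ugt8a on 3, 4 and 3, and Sult2b1 on 12 arrays, with WT replicate 3 missing. A dim signal has no firm level where it was not well above background, so the values of these 4 are less reliable than those of the rest.

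Close paralogues may cross-hybridise, because several of these genes arose by duplication and differ little in sequence. For 3 of the 35 probes the array annotation itself lists transcripts of more than 1 gene. The probe named Ugt1a6b also matches Ugt1a1, Ugt1a5 and Ugt1a10, whose transcripts share their 3′ exons, the probe named Ugt2b38 also matches Ugt2b37 and Ugt2b5, and the probe named Ugt2b37 also matches Ugt2b36. The longest run of bases shared by probes of different genes in the group was 11, between a probe of Ugt2b37 and the probe of Ugt2b5. Probes were compared with probes only, so this run does not show whether a probe matches the transcript of a paralogue. The probe sequences below are 60-base oligos of the array design, printed from the scanner files with mm7 coordinates. The Ugt2b38 and Ugt2b37 probes are shown because they cannot separate their paralogues, and the 3 Ugt2a1 probes because the last of them disagreed with the other 2 in the data described further on. A probe that spans more than 60 bases in the genome lies across an intron.
Ugt2b38, chr5:87358365-87358424, minus strand: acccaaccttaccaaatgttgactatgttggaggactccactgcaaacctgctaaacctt
Ugt2b37, chr5:87177762-87179054, minus strand: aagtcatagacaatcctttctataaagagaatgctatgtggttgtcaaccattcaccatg
Ugt2a1, chr5:87398867-87399681, minus strand: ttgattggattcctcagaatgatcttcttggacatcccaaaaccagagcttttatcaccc
Ugt2a1, chr5:87399702-87400835, minus strand: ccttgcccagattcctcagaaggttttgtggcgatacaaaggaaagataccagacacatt
Ugt2a1, chr5:87398687-87398746, minus strand: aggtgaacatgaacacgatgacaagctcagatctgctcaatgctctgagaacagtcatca

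None of the 25 conjugating enzymes differed between genotypes past the threshold, an adjusted p of 0.05 by limma with Benjamini-Hochberg adjustment over the 20557 genes tested. For TAKI minus WT the count was 0 of 25, where 2.86% of all genes passed. For TEKI minus WT it was 0 of 25, where 0.00486% of all genes passed, which is 1 gene. For TEKI minus TAKI it was 0 of 25, where 3.46% passed. At an unadjusted p under 0.05, Ugt8a counted for TAKI minus WT (14.7% of all genes) and for TEKI minus WT (11.6%), and Sult3a1 for TEKI minus TAKI (12.1%), both dim and both chosen for mention after their values were seen. Groups that did not overlap were found for 0 of 25 in TAKI against WT (7.51% of all genes), for 1 of 25, Ugt8a, in TEKI against WT (3.91%), and for 0 of 25 in TEKI against TAKI (8.29%). In bulk liver, fewer cells of a type and less RNA per cell cannot be told apart, for these and all values that follow.

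The median size of a difference, regardless of sign, was 0.16 for TAKI minus WT, 0.22 for TEKI minus WT and 0.11 for TEKI minus TAKI (all genes 0.16, 0.18 and 0.18). The highest differences were those of dim genes, up to 0.96, 1.15 and 1.48 in the same order. More members lay above 0 than below it. For TAKI minus WT 19 of 25 lay above 0 with a median of 0.11 on the log2 scale (all genes: 50.3%, median 0.0019), but with arrays scaled to their median 10 of 25 did, because that scaling moved the median of all genes to -0.15. For TEKI minus WT 21 of 25 lay above 0 with a median of 0.22 (all genes: 62.5%, median 0.072), against 4 of 25 with median scaling, which moved the median of all genes to -0.36. For TEKI minus TAKI 20 of 25 lay above 0 with a median of 0.090 (all genes: 60.6%, median 0.064), against 3 of 25 with median scaling (median of all genes -0.21) and with the deposited values left unscaled (-0.21). Relative to the median of all genes, 19, 18 and 15 of 25 lay above it in the 3 comparisons, in that order, with either scaling, and with normexp background correction 8 of 25 did for TEKI minus TAKI. Nothing particular to the group is read from these counts, and TAKI minus WT and TEKI minus WT share their WT arrays.

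Single animals bore on these counts. WT replicate 5 had 19 of the 21 well-measured genes above their own median over the 13 animals, while WT replicates 1, 2, 3 and 4 had 3, 3, 8 and 4. Within slide 3, where the 3 TEKI arrays lie beside WT replicate 5 only, 8 of 25 TEKI minus WT differences were above 0, with a median of -0.18 (all genes 0.049). Without WT replicate 5 the median was 0.28 for TEKI minus WT and 0.22 for TAKI minus WT. For TEKI minus TAKI 13 of 25 lay above 0 without TEKI replicate 3, and also 13 of 25 without TAKI replicate 2.

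**Figure D1:**
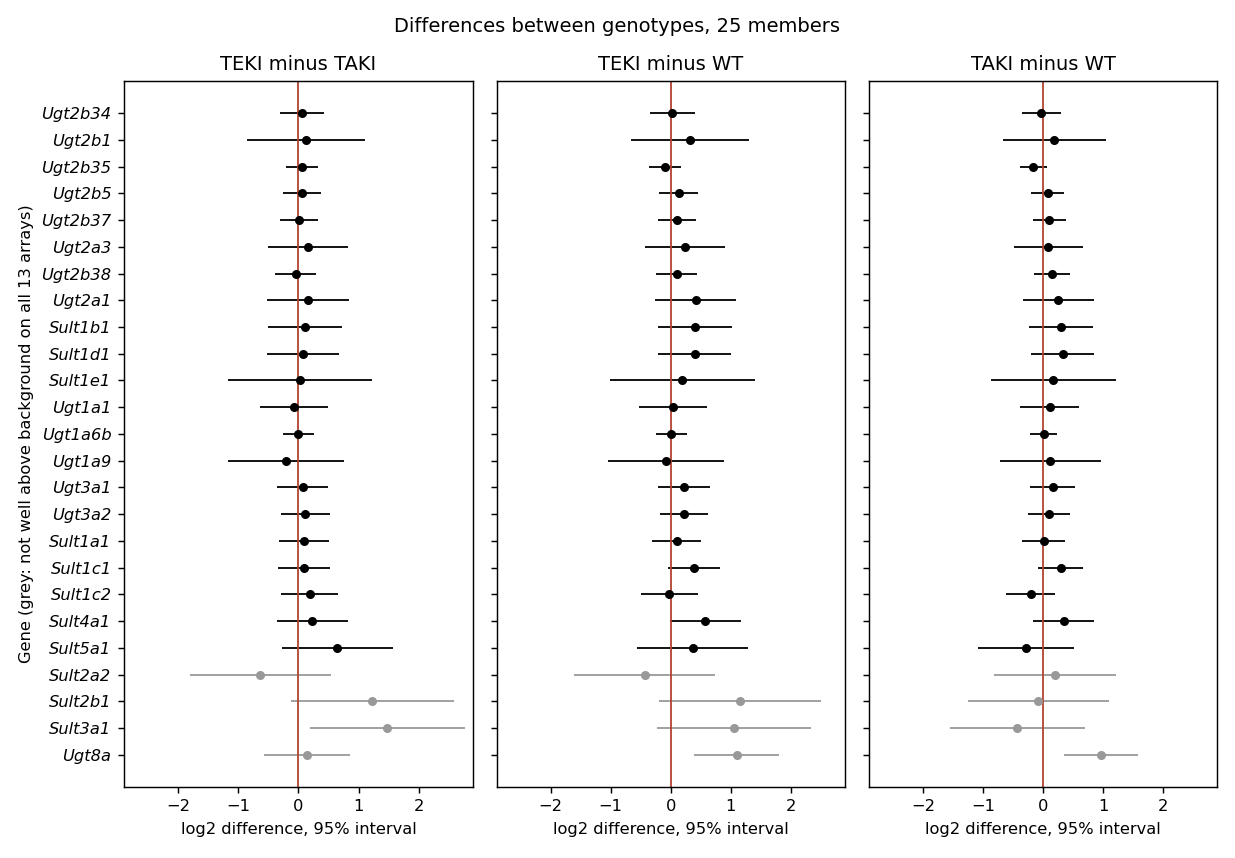
Log2 differences between genotypes for the 25 genes, as TEKI minus TAKI, TEKI minus WT and TAKI minus WT. Points are limma estimates, bars their 95% intervals, and grey marks the 4 genes not well above background on all 13 arrays. Most intervals hold 0, and those that do not belong to grey genes.

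Among the Ugt1a enzymes, which are made from a locus where alternative 5′ exons join a common 3′ part, none differed past the threshold. The probe named Ugt1a6b, an enzyme of small planar phenols, reads that common part and measured 7.78, 7.95 and 8.08 in TEKI livers, 8.02, 7.76, 8.15, 7.85 and 7.91 in TAKI livers, and 7.83, 7.85, 7.997, 7.84 and 8.12 in WT livers. The 3 groups overlapped throughout, and the highest of the 13 values was 1.32-fold the lowest, the narrowest range of the 21 well-measured genes. TEKI minus WT was 0.01 with a 95% interval of -0.25 to 0.27, and TEKI minus TAKI -0.0012 with an interval of -0.26 to 0.26 (limma, adjusted p = 0.988 and 0.998). The other Ugt1a6b probe, for which the array annotation lists no other gene, differed by 0.29 ± 0.19 (SE, n = 3 and 5) for TEKI minus WT. The 2 probes correlated only moderately over the 13 animals (r = 0.510).

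Ugt1a1, the enzyme that conjugates bilirubin, averaged 2.63 ± 0.10 in TEKI livers (SD, n = 3), 2.69 ± 0.44 in TAKI livers (SD, n = 5) and 2.58 ± 0.39 in WT livers (SD, n = 5). Its 3 differences lay between -0.07 and 0.11. Ugt1a9, which conjugates bulky phenols, was more variable and measured -1.03, -0.11 and -2.17 in TEKI, -1.70, -0.60, -0.96, -0.66 and -0.58 in TAKI, and -1.59, -0.53, -1.19, -0.37 and -1.42 in WT. The lowest and the highest of its 13 values both came from TEKI animals, 4.17-fold apart, and TEKI minus WT was -0.09 ± 0.44 (SE). Ugt1a9 is described after its values were seen.

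The Ugt2 enzymes conjugate steroids, bile acids and many drugs, and 8 of the 14 Ugt genes belong to them. Ugt2b1 had the widest spread of these and measured 3.57, 3.13 and 3.89 in TEKI livers, 4.31, 2.68, 3.66, 2.99 and 3.36 in TAKI livers, and 2.57, 2.64, 3.57, 2.87 and 4.45 in WT livers. WT replicate 5 was the highest of all and WT replicate 1 the lowest, 3.69-fold apart, so the WT values enclosed those of both knock-ins. TEKI minus WT was 0.31 with a 95% interval of -0.67 to 1.30 (limma, adjusted p = 0.847), an interval that includes a doubling. For Ugt2b1, TEKI minus WT was -0.92 within slide 3.

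Ugt2a1, first described in rat olfactory epithelium, measured 2.93, 2.78 and 2.99 in TEKI livers, 3.17, 2.11, 3.01, 2.72 and 2.68 in TAKI livers, and 1.99, 2.25, 2.55, 2.18 and 3.47 in WT livers. TEKI lay above 4 of the 5 WT values and below that of WT replicate 5. TEKI minus WT was 0.41 ± 0.31 (SE, limma, adjusted p = 0.631), and for Ugt2a1, TEKI minus WT was -0.57 within slide 3. A second Ugt2a1 probe followed the first closely over the animals (r = 0.985), while the other one did not (r = 0.236 with the first).

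The Ugt2a1 probe that stood apart gave the only call of any probe in the group when each probe was tested alone, and it was singled out for this. It measured -3.09, -4.38 and -2.38 in TEKI livers and -6.06, -6.26, -6.47, -6.07 and -5.86 in TAKI livers, with no overlap. WT livers, at -4.84, -4.96, -5.54, -4.53 and -3.90, lay wholly above TAKI and overlapped TEKI, with TAKI minus WT at -1.39 ± 0.36 (SE, limma, adjusted p = 0.076 over all probes). TEKI minus TAKI was 2.86 ± 0.41 (SE, limma, adjusted p = 0.0039 over 29910 probes, of which 2.88% passed). It was well above background on 3 TEKI arrays, 1 TAKI array and 4 WT arrays, and it lies in row 446 of the 532 rows of the array, whereas the 2 probes that followed each other lie in rows 53 and 307 and differed by 0.16 and 0.13. The part of TEKI replicate 1, of slide or of array position in this value was not tested.

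Ugt2b37, Ugt2b38 and Ugt2b5 were among the steadiest of these genes. Ugt2b37 averaged 6.80 ± 0.03 in TEKI livers (SD, n = 3), 6.79 ± 0.12 in TAKI livers (SD, n = 5) and 6.69 ± 0.28 in WT livers (SD, n = 5). For TEKI minus TAKI the difference was 0.0046 with an interval of -0.31 to 0.32. Ugt2b38 averaged 6.37 ± 0.08, 6.42 ± 0.19 and 6.27 ± 0.26 in the same order of groups, and Ugt2b5 averaged 5.92 ± 0.03, 5.86 ± 0.18 and 5.79 ± 0.25. WT replicate 5 was the highest of the 5 WT animals for all 3, at 7.18, 6.72 and 6.16. The Ugt2b38 and Ugt2b37 probes overlap in the genes they match, so these are not 3 independent readings.

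Ugt2b35 was the Ugt gene of smallest p among well-measured genes for TAKI minus WT. It measured 4.07, 4.27 and 4.22 in TEKI livers, 4.28, 4.20, 3.80, 4.20 and 4.13 in TAKI livers, and 4.20, 4.33, 4.39, 4.37 and 4.13 in WT livers, with overlap of all groups. TAKI minus WT was -0.16 ± 0.10 (SE, limma, adjusted p = 0.548). TAKI replicate 3 was its lowest value. Ugt2b34, and Ugt2a3, whose human counterpart conjugates bile acids, differed by no more than 0.24 in any comparison, and Ugt2a3 ranged over 3.01-fold, with WT replicate 1 lowest at 4.27 and WT replicate 5 highest at 5.86.

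The remaining Ugt genes use other sugars. Ugt3a1 and Ugt3a2, whose human counterparts transfer N-acetylglucosamine and glucose or xylose, moved together from animal to animal. Ugt3a2 measured 5.44, 5.49 and 5.94 in TEKI livers, 5.70, 5.05, 5.77, 5.36 and 5.66 in TAKI livers, and 5.21, 5.24, 5.54, 5.39 and 5.65 in WT livers. The groups overlapped, with TEKI minus TAKI at 0.12 ± 0.19 (SE, limma, adjusted p = 0.859). A second Ugt3a2 probe, also well above background on all 13 arrays, gave TEKI minus TAKI the other sign, at -0.18 ± 0.22 (SE). It gave TAKI minus WT at 0.38 ± 0.19 (SE, limma, adjusted p = 0.449 over all probes). The 2 probes correlated at r = 0.670 over the 13 animals.

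Ugt8a, the galactosyltransferase that makes the galactolipids of myelin, was dim. It measured -3.84, -4.52 and -4.66 in TEKI livers, -5.11, -4.43, -4.35, -4.20 and -4.32 in TAKI livers, and -5.47, -5.28, -6.39, -5.19 and -4.84 in WT livers. Every TEKI value lay above every WT value, while TAKI replicate 1 fell among the WT values. TEKI minus WT was 1.09 ± 0.33 (SE, limma, adjusted p = 0.392) and TAKI minus WT was 0.96 ± 0.28 (SE, limma, adjusted p = 0.110). The probe lies in row 244, and WT replicates 1 and 3 and TAKI replicate 1 were not well above background, so the WT level is not firm.

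**Figure D2:**
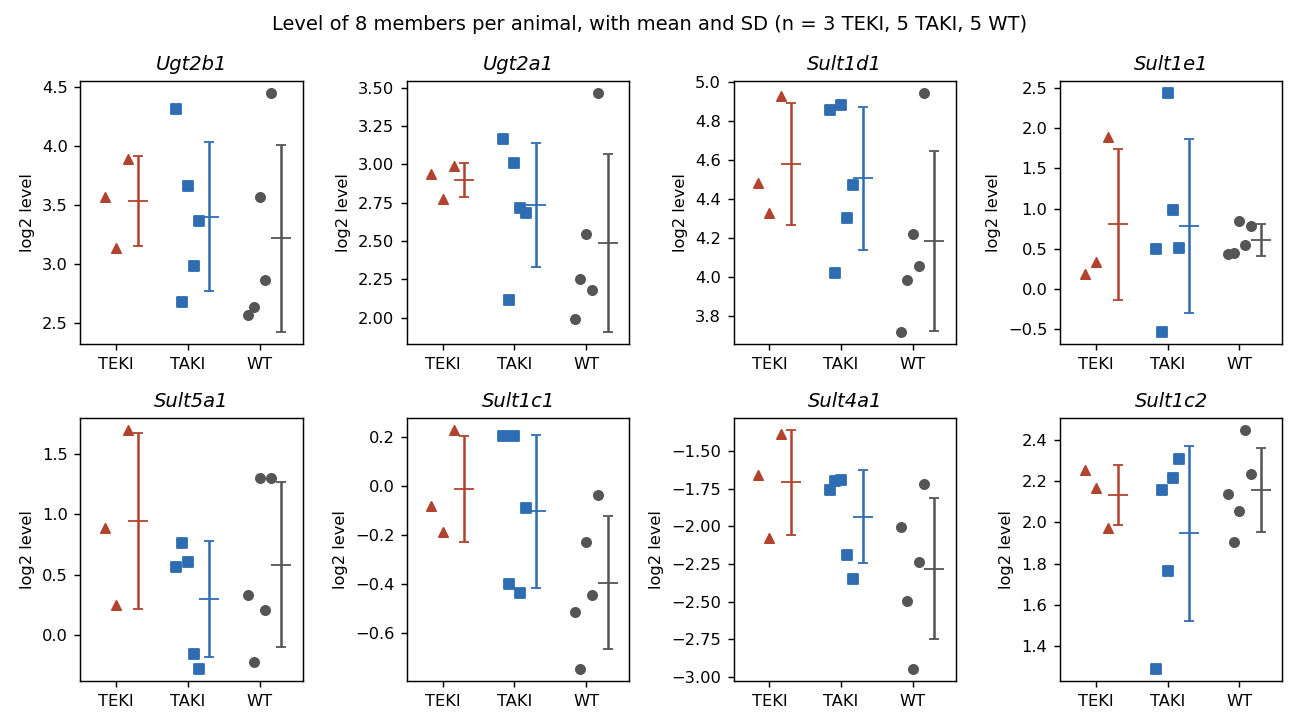
Log2 level, 75th percentile subtracted, for 8 of the genes. Each point is an animal, horizontal lines are means and bars the SD (n = 3 TEKI, 5 TAKI, 5 WT), and each panel has its own axis. The genotypes overlap in every panel, and in the Ugt2b1, Ugt2a1 and Sult1d1 panels WT replicate 5 is the highest of the 13 animals.

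Among the Sult1 enzymes, Sult1a1, the main phenol sulfotransferase, averaged 6.20 ± 0.27 in TEKI livers (SD, n = 3), 6.11 ± 0.29 in TAKI livers (SD, n = 5) and 6.10 ± 0.23 in WT livers (SD, n = 5). TAKI minus WT was 0.0081 with an interval of -0.35 to 0.36. Its 13 values spanned 1.71-fold.

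Sult1c1, an enzyme of phenolic compounds, had the smallest p of the well-measured genes for TAKI minus WT. It measured -0.08, -0.19 and 0.23 in TEKI livers, 0.20, -0.40, 0.20, -0.44 and -0.09 in TAKI livers, and -0.52, -0.75, -0.23, -0.45 and -0.04 in WT livers. The groups overlapped, with WT replicate 5 inside the range of both knock-ins. TAKI minus WT was 0.29 with an interval of -0.09 to 0.67 (limma, adjusted p = 0.501), TEKI minus WT was 0.38 with an interval of -0.05 to 0.82 (limma, adjusted p = 0.474), and the probe lies in row 206. With the deposited values left unscaled, TAKI minus WT of Sult1c1 was 0.51 and passed (limma, adjusted p = 0.0339), where the median of all genes stood at 0.22.

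Sult1b1, an enzyme of thyroid hormones, and Sult1d1, which in mice sulfates catecholamines, lie next to each other and showed like values. Sult1b1 measured 3.41, 3.04 and 3.78 in TEKI livers, 3.76, 2.72, 3.39, 3.29 and 3.35 in TAKI livers, and 2.50, 2.87, 3.26, 2.77 and 3.65 in WT livers. Sult1d1 measured 4.48, 4.33 and 4.93 in TEKI, 4.85, 4.02, 4.88, 4.30 and 4.47 in TAKI, and 3.71, 3.98, 4.22, 4.06 and 4.94 in WT. In both genes the groups overlapped, with WT replicate 5 far above WT replicates 1, 2 and 4. For TEKI minus WT the differences were 0.40 ± 0.28 (SE) for Sult1b1 and 0.40 ± 0.28 (SE) for Sult1d1, and for TAKI minus WT they were 0.29 ± 0.24 and 0.32 ± 0.24 (SE, array rows 439 and 424). All 4 stayed short of the threshold (limma, adjusted p from 0.599 to 0.667). For Sult1b1, TEKI minus WT was -0.24 within slide 3, and for Sult1d1, TEKI minus WT was -0.36 there.

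Sult1e1, the estrogen sulfotransferase, varied most of all 21 well-measured genes. It measured 0.19, 0.34 and 1.89 in TEKI livers, 0.50, -0.54, 2.44, 0.98 and 0.51 in TAKI livers, and 0.43, 0.44, 0.85, 0.55 and 0.78 in WT livers. TAKI replicate 3 and TEKI replicate 3 stood high and TAKI replicate 2 low, 7.85-fold between the extremes, while the 5 WT values lay between 0.43 and 0.85. The means hardly differed, at 0.80 ± 0.94 in TEKI (SD, n = 3), 0.78 ± 1.08 in TAKI (SD, n = 5) and 0.61 ± 0.19 in WT (SD, n = 5), and TAKI minus WT was 0.17 with an interval of -0.87 to 1.21. Whether the spread differs between genotypes was not tested.

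Sult1c2 measured 2.26, 2.17 and 1.97 in TEKI livers, 1.29, 2.16, 1.76, 2.22 and 2.31 in TAKI livers, and 2.14, 1.90, 2.06, 2.45 and 2.24 in WT livers. TAKI replicate 1 was its lowest value. The groups overlapped, with TEKI minus TAKI at 0.19 ± 0.22 (SE, limma, adjusted p = 0.795, row 239).

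Sult4a1, a family member best known from brain and without a settled substrate, had the smallest p of the well-measured genes for TEKI minus WT. It measured -1.66, -2.08 and -1.39 in TEKI livers, -1.76, -1.70, -1.69, -2.19 and -2.35 in TAKI livers, and -2.004, -2.50, -2.95, -2.24 and -1.72 in WT livers. WT replicate 5 lay among the TEKI values. TEKI minus WT was 0.57 with an interval of -0.02 to 1.16 (limma, adjusted p = 0.437), and for Sult4a1, TEKI minus WT was 0.01 within slide 3. TAKI minus WT was 0.34 ± 0.23 (SE, limma, adjusted p = 0.575, row 290).

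Sult5a1, for which no substrate is well established, measured 0.89, 0.24 and 1.70 in TEKI livers, 0.56, 0.76, 0.60, -0.16 and -0.29 in TAKI livers, and 0.33, -0.22, 1.30, 0.21 and 1.30 in WT livers. TEKI replicate 3 was the highest value and TAKI replicate 5 the lowest, 3.97-fold apart. TEKI minus TAKI was 0.65 with an interval of -0.28 to 1.58 (limma, adjusted p = 0.602, row 276), and for Sult5a1, TEKI minus TAKI was 0.27 without TEKI replicate 3.

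The dim sulfotransferases gave the widest intervals. Sult2b1, which sulfates cholesterol, measured -1.84, -4.86 and -4.37 in TEKI livers, -4.77, -4.28, -5.25, -5.69 and -4.62 in TAKI livers, and -4.75, -4.30, -6.04, -4.57 and -4.53 in WT livers, so TEKI replicate 1, the array with the most spots above background, stood alone. TEKI minus TAKI was 1.23 ± 0.62 (SE, limma, adjusted p = 0.476), and for Sult2b1, TEKI minus TAKI was 0.31 without that animal. Sult3a1, an enzyme of amines, measured -3.79, -5.05 and -4.09 in TEKI and -5.70, -7.67, -4.83, -5.44 and -5.31 in TAKI, with an overlap at TAKI replicate 3. TEKI minus TAKI was 1.48 with an interval of 0.19 to 2.77 (limma, adjusted p = 0.317, row 239). Sult2a2, of the hydroxysteroid and bile acid sulfotransferases, averaged -5.50 ± 1.39 in TEKI (SD, n = 3), -4.86 ± 0.33 in TAKI (SD, n = 5) and -5.06 ± 0.70 in WT (SD, n = 5).

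The median SD within a genotype was 0.305 over the 21 well-measured members and 0.219 over the 15598 genes that were well above background on all 13 arrays. This difference was not tested, and Ugt1a6b (0.143), Ugt2b35 (0.146), Ugt2b5 (0.192), Ugt2b37 (0.192) and Ugt2b38 (0.207) lay below the median of all genes. The number of members above their own median, of 21, was 10, 10 and 16 in TEKI replicates 1 to 3, 16, 3, 16, 6 and 12 in TAKI replicates 1 to 5, and 3, 3, 8, 4 and 19 in WT replicates 1 to 5. Each genotype held animals in which most of the enzymes were high, and TAKI and WT also held animals in which most were low.

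**Figure D3:**
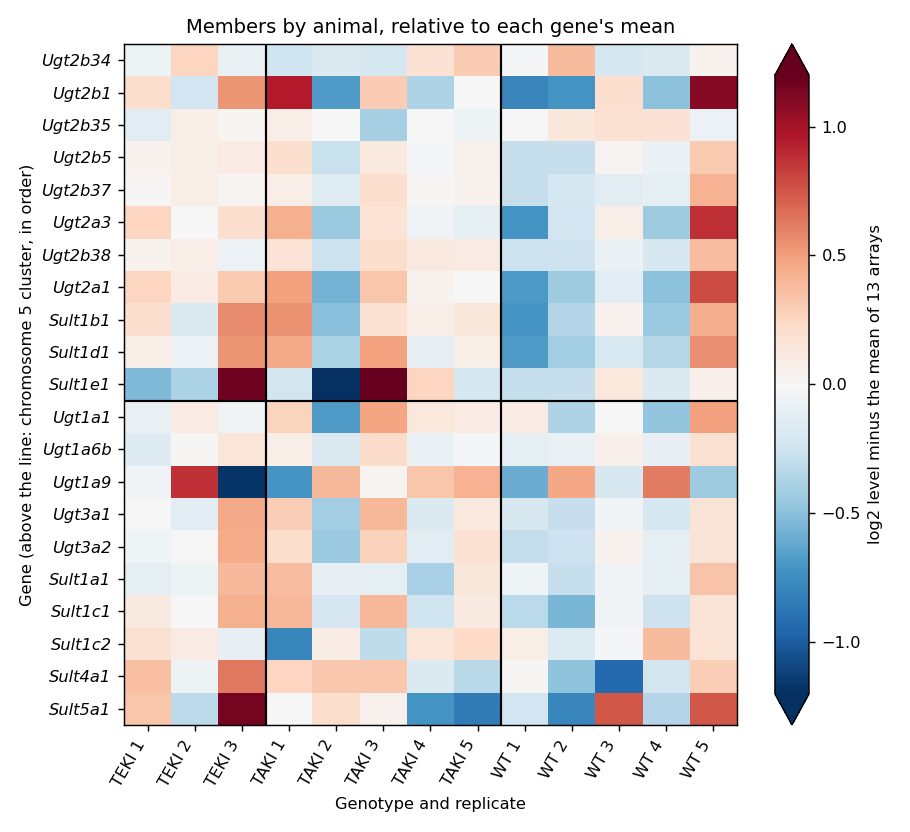
Log2 level of the 21 well-measured genes in each of the 13 animals, minus the mean of that gene over the animals. Genes above the horizontal line lie in the chromosome 5 cluster, in order. Columns of mostly red or mostly blue occur within TAKI and within WT, as in WT replicate 5, where 19 of 21 genes exceeded their median, and WT replicates 1 and 2, where 3 of 21 did.

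Over the 13 animals, 43 of the 210 pairs of members had a Pearson r of at least 0.8, which is 20.5% of the pairs, and 0.731% of the 121266951 pairs of 15574 well-measured genes did. The median r was 0.47 for member pairs and 0.011 for all pairs. Some member pairs may not be independent readings. By the array annotation the Ugt2b38 probe also matches Ugt2b37 and Ugt2b5, and the Ugt1a6b probe also matches Ugt1a1. Ugt2b37 and Ugt2b38, for example, had r = 0.935, and Ugt2b38 and Ugt2b5 had r = 0.906. Other close paralogues may cross-hybridise as well, and the shares were not computed without such pairs. After Benjamini-Hochberg adjustment over the 210 pairs, 86 passed a permutation test of Pearson's r, 83 of them positive, and 68 of the 86 also passed with Spearman's rho. That test was run on member pairs only, so the share of all gene pairs that would pass it is not known. Nothing particular to the members is read from these counts. The animals share slides and genotypes, and no slide held more than 4 arrays, too few for a correlation within 1 slide. With genotype means removed 41 pairs reached 0.8 (1.15% of all pairs), and with slide means removed, over 12 animals, 36 did (2.01% of all pairs).

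The scaling moved these shares. With arrays scaled to their median 53 member pairs reached 0.8 (25.2%), but so did 19.1% of all pairs. Quantile normalization left 27 member pairs (12.9%, against 0.668% of all pairs) and normexp background correction 26 (12.4%, against 0.990%). With the deposited values left unscaled 27 member pairs reached 0.8, 12.9% against 7.26% of all pairs.

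The tightest pair was Ugt2a1 and Ugt2a3, with r = 0.961 and rho = 0.945 (permutation test, adjusted p = 0.00030, from the smallest p that 100000 permutations can give, 1e-05). Its r was 0.946 without the 2 farthest animals and 0.977 with genotype means removed. Ugt3a1 and Ugt3a2, neighbours on chromosome 15, followed with r = 0.956 and rho = 0.951 (permutation test, adjusted p = 0.00030) and an r of 0.933 without the 2 farthest animals. Sult1d1 had the most partners, 11 of 20 at r of at least 0.8, and with Ugt2a1 it reached r = 0.942 and rho = 0.945 (permutation test, adjusted p = 0.00030; r = 0.917 without the 2 farthest animals). Pairs at this level thus joined sulfotransferases to glucuronosyltransferases.

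Many of these genes are neighbours. In mm7 coordinates 11 of the 25 lie within 685.691 kb of chromosome 5, in the order Ugt2b34, Ugt2b1, Ugt2b35, Ugt2b5, Ugt2b37, Ugt2a3, Ugt2b38, Ugt2a1, Sult1b1, Sult1d1 and Sult1e1. Ugt2b34, Ugt2b35 and Sult1e1 lie in the cluster and had no partner at 0.8, while Ugt3a1 and Ugt3a2 (6 and 7 partners) lie on chromosome 15 and Sult1c1 (7 partners) on chromosome 17. Ugt2b34 and Ugt2b35 had median correlations with the other members of -0.17 and -0.33, and Sult1c2 and Ugt1a9, outside the cluster, of -0.32 and -0.42. Sult1a1, Sult1c2, Sult4a1, Sult5a1 and Ugt1a9, outside the cluster, also had no partner at 0.8.

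The 3 negative pairs that passed all held Ugt1a9. They were with Sult1a1 (r = -0.683, rho = -0.621, permutation test, adjusted p = 0.0308), Sult5a1 (r = -0.681, rho = -0.670, permutation test, adjusted p = 0.0308) and Ugt3a1 (r = -0.635, rho = -0.593, permutation test, adjusted p = 0.0489). Without the 2 farthest animals they were -0.387, -0.499 and -0.488, so they rest in part on those animals. These p-values are of r. By rho only the pair with Sult5a1 passed (permutation test, adjusted p = 0.0421), and those with Sult1a1 and Ugt3a1 did not (0.0725 and 0.0965). Sult1e1, for its part, correlated best with Ugt1a6b (r = 0.771, rho = 0.742, permutation test, adjusted p = 0.0045; r = 0.576 without the 2 farthest animals).

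**Figure D4:**
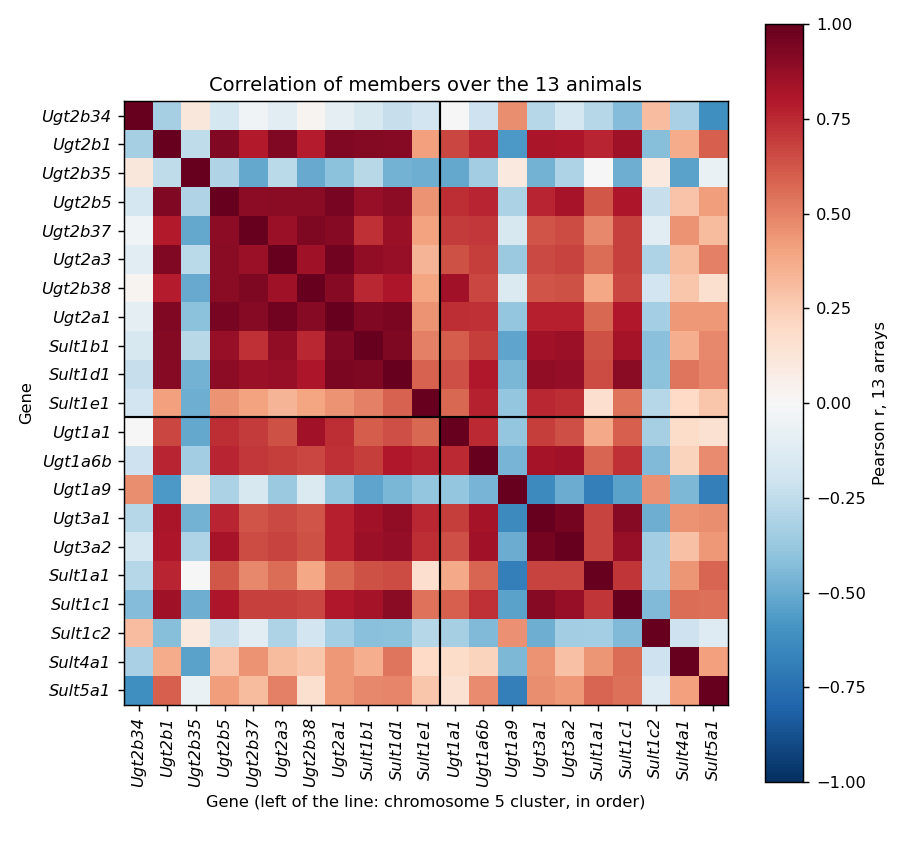
Pearson correlation over the 13 animals between the 21 well-measured genes, with the chromosome 5 cluster first, in order. Red is positive and blue negative. A block of positive correlations runs through the cluster and on to Ugt3a1, Ugt3a2 and Sult1c1, while Ugt2b34, Ugt2b35, Ugt1a9 and Sult1c2 stand out as pale or blue.

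Promoters from RefSeq on GRCm38.p6, 300 bases each around the gene start, were found for 21 of the 25 genes. The letters GTTAAT on either strand, 1 arm of the palindrome bound by the liver factor HNF1, occurred in 6 of 21 (28.6%), namely Sult1a1, Sult1d1, Ugt1a1, Ugt1a9, Ugt2a3 and Ugt3a1, against 7.2% of all 27025 promoters. The nuclear receptor core motif AGGTCA, searched likewise, occurred in 7 of 21 (33.3%) against 16%. These were Sult1b1, Sult1e1, Ugt1a9, Ugt2b35, Ugt2b37, Ugt2b38 and Ugt2b5. The promoters of Ugt2b37, Ugt2b38 and Ugt2b5 share the stretch around these letters, so the 7 are not independent occurrences. Neither excess was tested. The full HNF1 palindrome occurred in 0 of 21 (0.0074% of all promoters), and the letters CAAAGTCCA of an HNF4 site in 0 of 21 (0.477%). A match is a run of letters and not a shown binding site. The genes of the positive block were not marked off by GTTAAT, since Ugt2b1, Ugt2b5 and Sult1b1 lack it in this window and Ugt1a9, of the negative pairs, holds it. Promoters of 3 genes of the block are printed because they hold these letters, in capitals, from the 5′ end on the strand of the gene, GTTAAT reading as ATTAAC where it lies on the other strand.
Sult1d1, chr5:87568957-87569256, minus strand: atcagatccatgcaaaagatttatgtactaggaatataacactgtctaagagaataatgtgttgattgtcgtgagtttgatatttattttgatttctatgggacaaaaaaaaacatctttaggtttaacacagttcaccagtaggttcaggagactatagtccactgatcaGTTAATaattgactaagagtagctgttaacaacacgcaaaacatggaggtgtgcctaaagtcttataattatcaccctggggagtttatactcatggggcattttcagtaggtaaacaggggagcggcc
Ugt2a3, chr5:87337146-87337445, minus strand: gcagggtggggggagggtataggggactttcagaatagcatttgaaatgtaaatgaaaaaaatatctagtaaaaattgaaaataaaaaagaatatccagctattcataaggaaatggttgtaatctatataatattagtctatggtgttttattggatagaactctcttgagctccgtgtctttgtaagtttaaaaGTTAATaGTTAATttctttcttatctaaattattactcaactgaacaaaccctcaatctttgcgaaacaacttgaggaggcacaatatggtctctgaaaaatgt
Ugt3a1, chr15:9279579-9279878, plus strand: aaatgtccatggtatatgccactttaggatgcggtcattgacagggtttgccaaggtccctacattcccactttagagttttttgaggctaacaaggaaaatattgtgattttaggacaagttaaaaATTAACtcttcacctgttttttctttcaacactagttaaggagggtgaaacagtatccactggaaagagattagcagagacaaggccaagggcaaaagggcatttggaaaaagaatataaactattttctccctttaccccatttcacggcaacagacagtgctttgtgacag
In Sult1d1 the letters start at -79 and in Ugt3a1 at -123, counted from the gene start, and in Ugt2a3 they occur at 2 places.

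Other genes whose level followed that of the 3 most variable members were looked up among 15597 well-measured genes over the 13 animals, as a description. Nearest to Ugt2b1 were Keg1 (r = 0.965), Sucnr1 (0.957), Nr1h4 (0.955), Gchfr (0.955) and Grtp1 (0.954). Keg1 is a glycine N-acyltransferase-like gene, Sucnr1 the succinate receptor and Nr1h4 the bile acid receptor FXR. Nearest to Sult5a1 were Pigt (0.918), Ambp (0.915), Dcps (0.912), Immp2l (0.906) and Psmb6 (0.903), and nearest to Sult1e1 were Pus10 (0.868), Arhgef3 (0.865), Arl6ip1 (0.861), Ubr3 (0.853) and Nbr1 (0.849). These are the extremes of a long list over few animals, and nothing of shared function or control follows from them.

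Lists of markers for hepatocytes and other cell types were set against Ugt2b1, Sult5a1 and Sult1e1, the 3 most variable members, and not against the rest. Spp1, the gene for osteopontin and 1 of the 7 cholangiocyte markers tested, measured 3.89, 4.90 and 3.66 in TEKI livers, 3.03, 6.02, 3.81, 5.70 and 4.59 in TAKI livers, and 4.51, 5.69, 4.41, 4.83 and 2.94 in WT livers. Ugt2b1 was high where Spp1 was low and low where it was high, with r = -0.891 and rho = -0.846 (permutation test, adjusted p = 0.000788 over 63 relations computed; r = -0.845 without the 2 farthest animals). The summed cholangiocyte list without Spp1 gave r = -0.857 and rho = -0.885 (permutation test, adjusted p = 0.00126). Of the 7 markers, 6 were well above background on all 13 arrays, and the summed linear level was 13.7 to 31.2 in TEKI, 9.30 to 67.8 in TAKI and 8.65 to 53.7 in WT. Prom1, the other one, was so on 4 arrays. The kidney tubule list also followed Ugt2b1 (r = 0.790, permutation test, adjusted p = 0.0111), but without its gene Slc22a12 it gave r = 0.422 (permutation test, adjusted p = 0.289). The intestinal list gave r = 0.723 (permutation test, adjusted p = 0.0282), though its sum is nearly all Fabp2, a fatty acid binding protein gene that was well above background on all 13 arrays, and the list was not tried without it. The part of any of these cell types in the variation of the enzymes was not tested.

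Amy2, an amylase gene, measured 2.16, 1.16 and 2.41 in TEKI livers, 2.64, 0.80, 1.98, 1.08 and 1.29 in TAKI livers, and 1.03, 1.01, 1.61, 0.92 and 2.49 in WT livers. It followed Ugt2b1 with r = 0.945 and rho = 0.940 (permutation test, adjusted p = 0.000315). The summed level of the acinar list of 12 without Amy2 gave r = 0.103 (permutation test, adjusted p = 0.833). That sum does not describe each marker, and of the acinar markers only Amy2 was set against Ugt2b1 by itself. The summed level of all 12 was 4.03 to 7.37 in TEKI, 3.40 to 7.56 in TAKI and 3.33 to 7.30 in WT. The share of spots above background showed no such relation to Ugt2b1 (r = -0.022, permutation test, adjusted p = 0.961). Sult5a1 followed the hepatocyte list, with r = 0.864 and rho = 0.802 (permutation test, adjusted p = 0.00105; r = 0.804 without the 2 farthest animals), while for Ugt2b1 that relation was 0.621 and short of the threshold (permutation test, adjusted p = 0.0862). Sult5a1 also passed with the adipocyte list (r = 0.718, permutation test, adjusted p = 0.0308) and the intestinal list (r = 0.698, permutation test, adjusted p = 0.0379), which gave 0.443 and 0.486 without the 2 farthest animals. For Sult1e1 none of the 21 relations computed passed.

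**Figure D5:**
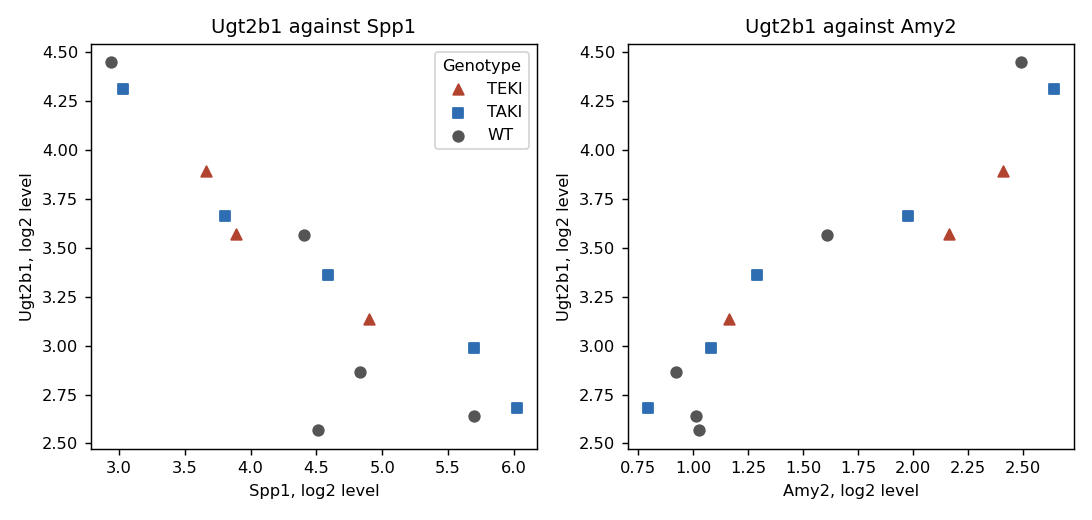
Log2 level of Ugt2b1 in each animal against that of Spp1 (left) and Amy2 (right), with genotype as colour and shape. Ugt2b1 falls as Spp1 rises (r = -0.891) and rises with Amy2 (r = 0.945), and animals of each genotype are spread along both trends.

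Genes around conjugation gave 0 calls in 7 lists and 3 comparisons. Of all genes 2.86% passed for TAKI minus WT, 0.00486% for TEKI minus WT and 3.46% for TEKI minus TAKI. At such shares short lists can hold 0 calls, so nothing particular to them is read from the count. Of 13 genes that supply or recycle the donors, the 2 of smallest p were Impad1, which clears the phosphorylated by-product of sulfation in the Golgi, with TEKI minus WT at -0.24 ± 0.10 (SE, limma, adjusted p = 0.406), and Slc13a1, a sulfate transporter measured well above background on 7 arrays only, with TEKI minus TAKI at 1.88 ± 0.82 (SE, limma, adjusted p = 0.385). Ugdh, which makes UDP-glucuronate, differed by -0.30 for TAKI minus WT (adjusted p = 0.463), and is named after its value was seen. A list of 9 sulfatases and glycosidases was not limited to enzymes that act on the conjugates described here. In it Ids and Arsk came first, with TAKI minus WT at -0.17 and 0.19 (limma, adjusted p = 0.390 and 0.419).

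Of 16 transporters, Abcc6, a carrier of the multidrug resistance protein family, gave TEKI minus TAKI at 0.36 ± 0.13 (SE, limma, adjusted p = 0.236). Of 21 nuclear receptors and other regulators, Stat5b, the mediator of growth hormone in liver, gave TAKI minus WT at -0.32 ± 0.09 (SE, limma, adjusted p = 0.0973), the value nearest to the threshold in any of the lists. Keap1, the repressor of Nrf2, gave -0.26 ± 0.09 (SE, limma, adjusted p = 0.196). Of 19 genes that answer to those regulators, Tiparp gave TEKI minus WT at -0.18 and Cyp3a11 gave TEKI minus TAKI at -0.41 (limma, adjusted p = 0.554 and 0.605).

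Of 11 genes typical of female mouse liver, Cyp17a1 gave TAKI minus WT at 0.40 and Cyp3a44 TEKI minus TAKI at -0.44 (limma, adjusted p = 0.344 and 0.542). Of 10 typical of male liver, a list that also holds Ugt2b38, Gstp1 gave TEKI minus WT at 0.20 (limma, adjusted p = 0.592) and Moxd1, well above background on 6 arrays, TEKI minus TAKI at 1.44 (limma, adjusted p = 0.558).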

How the data were processed

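Liver RNA of 13 mice was labelled with Cy3 and hybridised to Agilent 1-colour arrays. Per the file headers, the deposited intensity of each spot is the processed signal of Agilent Feature Extraction 9.5, background-subtracted and spatially detrended within the array, and not scaled between arrays. The version is also given in the submitters' processing notes. The deposited value table held the same intensities (largest difference 0).

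Outlier spots were left out, spots of a probe averaged, and log2 values reduced by the 75th percentile of each array. Genes were those with a probe well above background on at least 3 arrays, 20557 in all. They were tested with limma 3.58.1 (R 4.3.3) in 1 model of the 3 genotypes with 10 residual degrees of freedom, Benjamini-Hochberg adjustment over all genes and a threshold of 0.05. The model was tested on simulated data. Correlations used permutation tests (scipy 1.17.1, numpy 2.4.6, pandas 2.3.3, Python 3.11.15, matplotlib 3.10.9).

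Replicates are separate animals. Replicate numbers were not treated as pairs of animals across genotypes in the main model. Deviations of equal numbers correlated between -0.23 and 0.32. Unequal numbers were not compared, so these values cannot decide whether the numbers pair animals. Members and lists were chosen with earlier results of these data known. In each comparison the 5 members of smallest p among those well above background on every array of both genotypes were named, besides the 5 Ugt and 5 Sult members of highest signal, the 3 of highest SD, and 2 genes of smallest p per list (1 is not reported here), all others being chosen after their values were seen. Of the 35 probes 34 matched RefSeq by accession. Under other names the array also carries Sult6b1 and Sult2a8, which the selection by name leaves out. Alternatives covered scaling, background correction, filters, probes, names, array position, variance model, slide, replicate block and each array left out. Exon and protein annotation of the probes was not used here.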

Additional observations from a re-analysis of the deposited data

Results flagged for a closer look

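In 4 of the 34 groups of 5 animals looked at (17 named genes in TAKI and in WT), 1 animal lay further from the rest than Dixon's 95% limit allows. Chance gives this in about 1 of 20 groups. Ugt2b38 in TAKI had its lowest level, 6.09, in replicate 2, with the next at 6.45. Ugt2b38 in WT had its highest, 6.72, in replicate 5, with the next at 6.27. Ugt2b37 in WT likewise had its highest, 7.18, in replicate 5, with the next at 6.65, and both probes match Ugt2b37 transcripts. Sult2b1 in WT had its lowest level, -6.04, in replicate 3, with the next at -4.75, and that array was not well above background for it.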

How the results depend on the processing

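The count of members past the threshold stayed at 0 in all 3 comparisons under most alternatives. These included median scaling, slide as a block and the fit with the replicate block. With the replicate block 1.66% of all genes passed for TAKI minus WT, 0.00486% for TEKI minus WT and 2.93% for TEKI minus TAKI. In the same order, the shares were 4.93%, 0.00973% and 5.04% with median scaling. With slide as a random block they were 2.2%, 0.00486% and 3.03%. Leaving out 1 animal at a time gave 0 members each time. The share of all genes then ran from 1.45% to 6.46% where TAKI was set against WT. It ran from 0.00486% to 0.448% for TEKI against WT, and from 2% to 5.43% for TEKI against TAKI. For TAKI minus WT the count of members was 1 with array weights (Ugt8a, limma, adjusted p = 0.0111, 11.2% of all genes). It was also 1 with the deposited values unscaled (Sult1c1, 4.97%). For TEKI minus TAKI it was 3 with normexp (Sult3a1, Ugt8a and Sult2b1; 20.8%), 1 with quantile normalization (Sult2a2, -1.36, adjusted p = 0.0490; 5.58%) and 1 with every probe alone (Ugt2a1; 2.88%). The cause was not tested. No named difference was called in the main setting. Of 1408 recomputed values of 51 named differences, 138 changed sign. Of these, median scaling gave 32, unscaled values gave 17, slide as a fixed block and slide 3 alone 12 of 17 each, and leaving out TEKI replicate 3 gave 12. The largest main difference among those that changed sign was 0.41, of Ugt2a1 for TEKI minus WT. Pairs of members with r of at least 0.8 numbered 36 to 49 with 1 animal left out (17.1% to 23.3%, against 0.760% to 0.967% of all gene pairs). With unscaled values they numbered 27 (12.9%, against 7.26% of all gene pairs, where the main setting gave 20.5% against 0.731%). These alternatives for pairs were chosen after seeing the data.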
